A study of Mus musculus with 12 samples.

Results

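The genes described here form the innate pathway by which liver cells sense bacterial products and answer through the transcription factor NF-κB. They are 10 of the 23909 named genes in the table, chosen by name: the lipopolysaccharide sensors Lbp, Cd14, Ly96 and Tlr4, the lipoprotein receptor Tlr2, the adaptor Myd88, the feedback inhibitors Nfkbia and Tnfaip3, and the response genes Icam1 and Il1b. All 10 were found. Livers came from C57BL/6 mice of 2 vendors that lived for 4 weeks with mice of their own or of the other vendor. CoTAC mice were Taconic animals housed with Jackson animals, and CoJAX mice were Jackson animals housed with Taconic animals. TAC and JAX mice shared cages only with their own vendor. Each group held 3 libraries of liver mRNA. The labels give no age, sex, cage or substrain. They also do not tie each library to its own animal, and the scatter that the p-values rest on is therefore that of the libraries at hand and may be technical.

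Lipopolysaccharide, the outer membrane molecule of gram-negative bacteria, reaches the liver from the gut through the portal vein. The serum protein LBP hands it to CD14, which passes it to the TLR4 receptor and its partner MD-2 (encoded by Ly96). The receptor signals through the adaptor MYD88 to a kinase complex that marks IκBα, the product of Nfkbia, for destruction, and this frees NF-κB to enter the nucleus. NF-κB in turn induces Nfkbia and Tnfaip3, whose products shut the pathway off again, together with adhesion molecules such as ICAM1 and cytokines such as interleukin-1β. In liver, Kupffer cells and sinusoidal endothelium carry much of the receptor side, and hepatocytes make LBP and soluble CD14.

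Levels are RPKM, read numbers divided by gene length and by library size. They can be compared between genes only roughly, because the trend of level on transcript length differed between libraries. The slope of log2 level per doubling of length ran from -0.148 in JAX 3 to 0.167 in CoTAC 1. Low values advance in steps that correspond to single reads, and from these steps the libraries held an estimated 1500000 to 3720000 reads. The JAX libraries and TAC 1 were the 4 shallowest, at relative depths of 0.7581 to 1 with JAX 1 set to 1, against 1.0541 to 1.8788 in the other 8. For 8 of the 10 genes every value was a whole number of reads in all 12 libraries (within 0.03 of a read), which shows the counts behind the RPKM. Differences below are on the log2(RPKM + 0.5) scale ± SE, from one limma-trend fit to all 12 libraries with Benjamini-Hochberg adjustment over 12058 tested genes and a threshold of 0.05. Of the 10 genes, 9 reached the filter of 1 RPKM in at least 3 libraries, and Tlr4 did not.

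Averaged over the 12 libraries, Lbp (101 RPKM) and Nfkbia (88.3 RPKM) were the most abundant of the 10. Ly96 (27.3 RPKM) and Myd88 (26.5 RPKM) followed, then Icam1 (10.3 RPKM) and Cd14 (6.37 RPKM). Il1b, Tlr2, Tnfaip3 and Tlr4 averaged 1.98, 1.67, 1.09 and 0.341 RPKM. The SD over the 12 libraries was 41.1 RPKM for Lbp, 25.6 for Nfkbia, 11.3 for Ly96, 3.46 for Myd88, 4.02 for Icam1 and 3 for Cd14. It was 2.16 RPKM for Il1b, 0.828 for Tlr2, 0.34 for Tnfaip3 and 0.227 for Tlr4. Neighbours in this order were separated by more than the sum of their SDs at 3 places, between Nfkbia and Ly96, between Myd88 and Icam1, and between Tnfaip3 and Tlr4, and not at the other places. The receptor Tlr4 lay far below its partner Ly96 in every library. Myd88 was the steadiest of the group, with a highest library 1.67 times its lowest, against 7.87 times for Tlr2 and 5.82 times for Cd14.

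**Figure D1:**
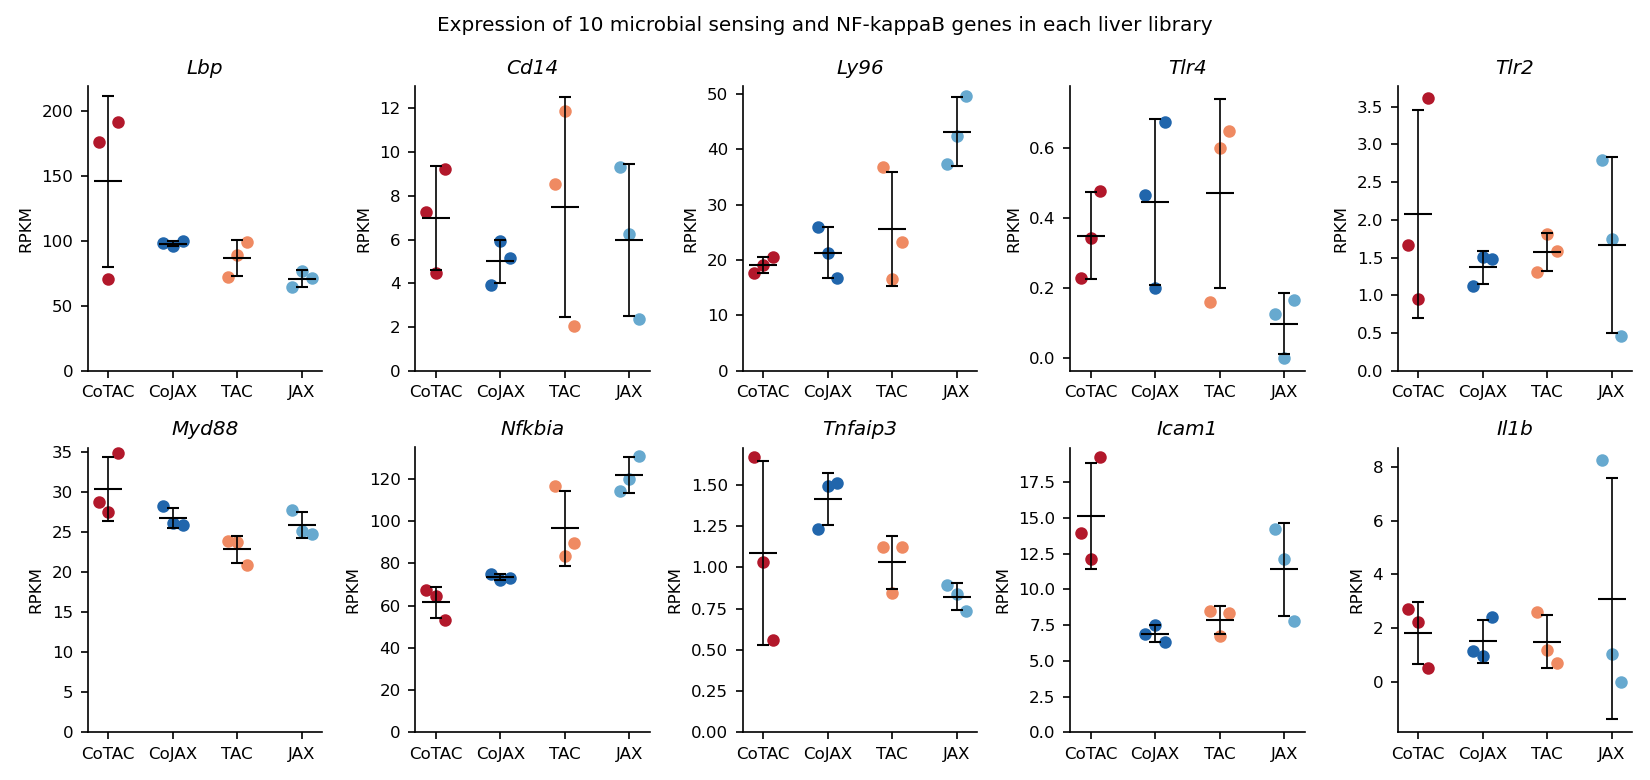
RPKM of each of the 10 genes (vertical axes, linear and separate for each gene) in the 12 libraries, grouped as CoTAC, CoJAX, TAC and JAX. Points are libraries, and the horizontal mark and bar are the mean and SD of 3 libraries. Nfkbia lies at 53.3 to 67.2 RPKM in CoTAC and at 114 to 131 RPKM in JAX, while the CoTAC libraries of Icam1 lie above the CoJAX and TAC libraries.

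Nfkbia, the inhibitor that holds NF-κB in the cytoplasm, was lower in CoJAX than in JAX and in the average over both vendors. The levels were 67.2, 64.4 and 53.3 RPKM in the CoTAC livers and 74.8, 72.1 and 73.2 RPKM in the CoJAX livers. They were 116, 83.6 and 89.4 RPKM in TAC and 114, 120 and 131 RPKM in JAX. No CoJAX library overlapped JAX, no CoTAC library overlapped TAC, and TAC 1 lay inside the JAX range. CoJAX averaged 73.4 ± 1.36 RPKM against 122 ± 8.54 RPKM in JAX (SD, n = 3 each), a log2 difference of -0.72 ± 0.13 (limma adjusted p = 0.00616). CoTAC averaged 61.6 ± 7.34 RPKM against 96.5 ± 17.5 RPKM in TAC, and this difference of -0.63 ± 0.13 just missed the threshold (limma adjusted p = 0.0527). Averaged over both vendors the cohousing difference was -0.68 ± 0.09 (limma adjusted p = 0.00207), which ranked 49 by p among 12058 genes. A difference between the vendors in the cohousing effect was not detected (interaction 0.09 ± 0.19, 95% interval -0.32 to 0.49, limma adjusted p = 0.893).

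Sequencing depth moved with Nfkbia, and its part in the difference cannot be told apart from that of the group. Its recovered reads ran from 242 to 466 per library and summed to 938 in CoTAC, 923 in CoJAX, 1003 in TAC and 919 in JAX. In RPKM, the 4 shallowest libraries (JAX and TAC 1) lay at 114 to 131 and the other 8 at 53.3 to 89.4. All 3 CoJAX libraries were deeper than all 3 JAX libraries. The closest pair in depth was CoJAX 1 and JAX 1, at relative depths of 1.0882 and 1, and Nfkbia stood at 74.8 RPKM in CoJAX 1 and 114 RPKM in JAX 1. Without TAC 1, the shallow TAC library, the CoTAC difference from TAC was -0.49 ± 0.11 (limma adjusted p = 0.143), with every CoTAC library still below both TAC libraries. With log2 depth as a covariate the CoJAX difference was -0.59 ± 0.16 (limma adjusted p = 0.0797) and the cohousing average -0.56 ± 0.12 (limma adjusted p = 0.0987). With the trend of each library on transcript length removed, the CoJAX difference was -0.51 ± 0.12 (limma adjusted p = 0.0158) and the cohousing average -0.48 ± 0.08 (limma adjusted p = 0.00527). Leaving out any single library kept the CoJAX call, at -0.77 to -0.67. Without CoJAX 1 and CoJAX 2, in which 105 small nucleolar RNA genes summed to 42646 and 34310 RPKM against 728 to 10214 RPKM in the other 10 libraries, the value was -0.73 ± 0.205 (limma adjusted p = 0.112), with 1 library left in the group.

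**Figure D2:**
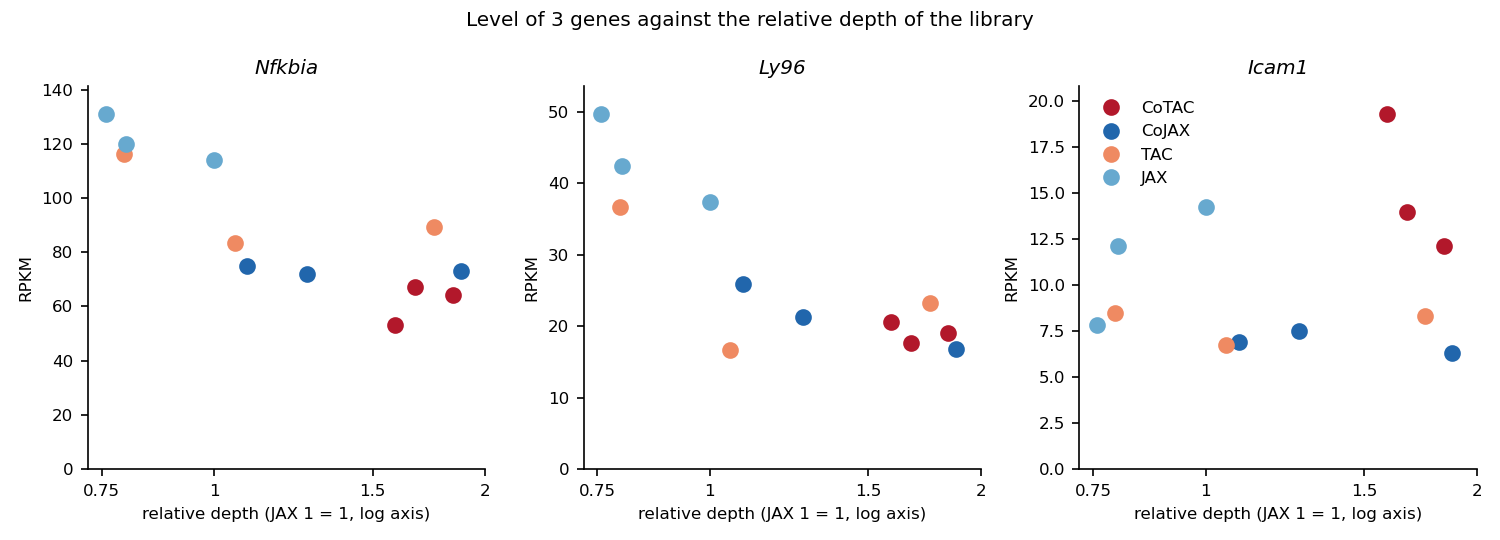
RPKM of Nfkbia, Ly96 and Icam1 (vertical axes) against the relative depth of the library (horizontal log axis, JAX 1 = 1), with 1 point per library and colours for the 4 groups. Nfkbia and Ly96 are highest in the 4 shallowest libraries, at 114 to 131 and 36.8 to 49.7 RPKM, while the CoTAC points of Icam1 lie at 12.2 to 19.3 RPKM, with JAX 1 (14.2 RPKM) among them.

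Tnfaip3 encodes A20, the ubiquitin-editing enzyme that is the other classical NF-κB feedback gene. It did not follow Nfkbia. Its values were 1.67, 1.03 and 0.562 RPKM in CoTAC, 1.23, 1.5 and 1.51 RPKM in CoJAX, 1.13, 0.848 and 1.12 RPKM in TAC, and 0.894, 0.839 and 0.737 RPKM in JAX. Every CoJAX library lay above every JAX library, while CoTAC spanned both. The CoJAX difference from JAX was 0.53 ± 0.28 (95% interval -0.07 to 1.13, limma adjusted p = 0.177) and the CoTAC difference from TAC was 0.00 ± 0.28 (95% interval -0.61 to 0.60, limma adjusted p = 0.996). An estimated 7 to 35 reads per library stood behind these levels, so changes below this interval were not detectable at this depth.

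Promoters are shown for both feedback genes and for Icam1, because the values of these genes had different patterns although NF-κB is known to induce all 3. The sequences are RefSeq promoters of build GRCm38.p6 (the files hold no coordinates, and the submitters used mm9), 250 bases before to 50 after the annotated start. Capitals mark matches to the kappaB consensus GGGRNNYYCC on either strand, where R is A or G, Y is C or T and N is any base.
Nfkbia, chr12:55492598-55492897, minus strand: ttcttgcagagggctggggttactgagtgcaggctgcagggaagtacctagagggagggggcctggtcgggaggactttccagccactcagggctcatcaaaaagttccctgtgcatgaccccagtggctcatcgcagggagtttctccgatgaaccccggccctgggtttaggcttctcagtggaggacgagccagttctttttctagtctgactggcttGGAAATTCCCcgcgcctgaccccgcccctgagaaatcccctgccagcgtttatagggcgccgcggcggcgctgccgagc
Tnfaip3, chr10:19015361-19015660, minus strand: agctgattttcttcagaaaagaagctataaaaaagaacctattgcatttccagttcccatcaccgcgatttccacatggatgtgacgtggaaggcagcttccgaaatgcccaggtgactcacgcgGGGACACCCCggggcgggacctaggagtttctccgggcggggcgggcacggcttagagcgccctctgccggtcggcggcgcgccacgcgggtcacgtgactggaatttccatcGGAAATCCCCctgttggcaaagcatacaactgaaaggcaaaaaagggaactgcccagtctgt
Icam1, chr9:21015690-21015989, plus strand: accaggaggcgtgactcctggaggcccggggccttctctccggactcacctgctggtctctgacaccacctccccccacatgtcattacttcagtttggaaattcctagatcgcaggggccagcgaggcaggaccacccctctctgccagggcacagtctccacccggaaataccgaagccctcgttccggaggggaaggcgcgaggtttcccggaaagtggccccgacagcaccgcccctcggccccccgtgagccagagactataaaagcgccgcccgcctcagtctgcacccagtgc
The Nfkbia window held 1 match, which begins 29 bases before the start, and the Tnfaip3 window shown held 2, which begin 125 and 12 bases before it. Another RefSeq promoter of Tnfaip3, chr10:19011914-19012213 on the minus strand, held 0. The Icam1 window held 0 matches to these letters, and so did the windows of Myd88 and Il1b, while Tlr2 held 3 matches, 2 of them overlapping at 1 place. The Icam1 window does hold tggaaattcc, which differs from the consensus only in its first base. A promoter was at hand for 6 of the 10 genes, and 3 of the 6 held a match in at least 1 of their promoters, against 12.1% of 9090 tested genes with a promoter. A match describes the letters and is not evidence of binding, and a window without a match may still hold a variant site.

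Icam1 encodes the adhesion molecule that leukocytes grip on activated endothelium. Its cohousing differences had opposite signs in the vendors, with no overlap of groups in either. It was listed at 14, 12.2 and 19.3 RPKM in CoTAC against 8.47, 6.76 and 8.35 RPKM in TAC. In Jackson mice the levels were 6.91, 7.48 and 6.32 RPKM in CoJAX against 14.2, 12.1 and 7.83 RPKM in JAX. All CoTAC libraries lay above all TAC and all CoJAX libraries, and all CoJAX libraries lay below all JAX libraries. The reads were 118, 113 and 155 in CoTAC, 38, 48 and 60 in CoJAX, 34, 36 and 74 in TAC, and 72, 49 and 30 in JAX. CoTAC differed from TAC by 0.88 ± 0.22 (limma adjusted p = 0.0784), CoTAC from CoJAX by 1.06 ± 0.22 (limma adjusted p = 0.144) and CoJAX from JAX by -0.65 ± 0.22 (limma adjusted p = 0.0507). None passed the threshold.

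The interaction for Icam1, the vendor difference among cohoused mice minus that among mice housed with their own vendor, was 1.53 ± 0.31 (95% interval 0.85 to 2.21). It ranked 18 by p among 12058 genes, with an unadjusted limma p of 0.000356 and an adjusted p of 0.237. With depth as a covariate it was 1.54 ± 0.33 (limma adjusted p = 0.14), and with the length trend removed 1.57 ± 0.31 (limma adjusted p = 0.199). It lay between 1.35 and 1.77 when single libraries were left out. Without CoTAC 2 the Icam1 calls passed for CoTAC against TAC (1.02 ± 0.24, limma adjusted p = 0.0449) and for CoTAC against CoJAX (1.20 ± 0.24, limma adjusted p = 0.0333), and without TAC 3 for CoTAC against TAC (0.93 ± 0.25, limma adjusted p = 0.0401). The CoJAX difference from JAX passed in 7 of 23 settings, among them the fits without JAX 3 (-0.89 ± 0.20, limma adjusted p = 0.0277), without CoTAC 2 (-0.65 ± 0.21, limma adjusted p = 0.0493) and without CoTAC 3 (-0.65 ± 0.20, limma adjusted p = 0.0445). The 10 markers of sinusoidal endothelium, a main site of ICAM1, summed to 57.6 to 159 RPKM in CoTAC, 150 to 213 in CoJAX, 138 to 192 in TAC and 178 to 267 in JAX. Within CoTAC these sums were 66.3, 159 and 57.6 RPKM, so libraries 1 and 3, the ones with high Lbp, lay below all others and library 2 lay within the TAC range. In CoTAC against TAC, 10 of 10 had negative differences, 0 of them past the threshold. In whole liver, fewer cells of a type and less RNA per cell cannot be told apart.

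Il1b, which encodes interleukin-1β, was rare and erratic. It was listed at 2.71, 2.24 and 0.518 RPKM in CoTAC, 1.14, 0.974 and 2.41 RPKM in CoJAX, 2.59, 1.17 and 0.705 RPKM in TAC, and 8.24, 1.03 and 0 RPKM in JAX. JAX 1 alone held 20 of the 73 reads in all 12 libraries, and JAX 3 held 0 reads, which allows up to 1.63 RPKM. All groups overlapped. The CoJAX and JAX difference was 0.02 ± 0.83 with a 95% interval of -1.79 to 1.84, so changes of severalfold could not be seen. Markers of neutrophils (7 of 8 in the table), which make interleukin-1β, summed to 6.63 to 39.3 RPKM in CoTAC, 6.76 to 13.4 in CoJAX, 6.56 to 73.6 in TAC and 12 to 19 in JAX. Their part in the Il1b values was not tested.

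Ly96 encodes MD-2, the subunit of the TLR4 complex that holds the lipid part of lipopolysaccharide. It was listed at 17.7, 19.0 and 20.6 RPKM in CoTAC, 26.0, 21.2 and 16.8 RPKM in CoJAX, 36.8, 16.6 and 23.3 RPKM in TAC, and 37.4, 42.4 and 49.7 RPKM in JAX. The JAX libraries lay above all others, with TAC 1 next to them. CoJAX averaged 21.3 ± 4.60 RPKM against 43.2 ± 6.18 RPKM in JAX, a log2 difference of -1.01 ± 0.24 (limma adjusted p = 0.0141), and the average over both vendors was -0.68 ± 0.17 (limma adjusted p = 0.0124). CoTAC and TAC differed by -0.34 ± 0.24 (95% interval -0.87 to 0.19, limma adjusted p = 0.391). TAC livers averaged 25.6 ± 10.3 RPKM, and were lower than JAX by -0.81 ± 0.24 without passing (limma adjusted p = 0.0726).

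Transcript length and depth changed the Ly96 result more than that of Nfkbia. At 666 nucleotides Ly96 is short, and the slope of log2 level on transcript length, per doubling, was 0.133 to 0.167 in CoTAC, -0.089 to 0.063 in CoJAX, -0.084 to 0.074 in TAC and -0.148 to -0.132 in JAX, so short transcripts read highest in JAX. With that trend removed the CoJAX difference was -0.36 ± 0.185 (limma adjusted p = 0.2) and the cohousing average -0.14 ± 0.13 (limma adjusted p = 0.45). With depth as a covariate they were -0.63 ± 0.27 (limma adjusted p = 0.193) and -0.32 ± 0.22 (limma adjusted p = 0.423). The CoJAX call was also lost without CoJAX 3 (-0.85 ± 0.26, limma adjusted p = 0.0531) and without JAX 3 (-0.91 ± 0.27, limma adjusted p = 0.0548). With CoJAX 3 as the lone CoJAX library, and its spread taken from the other groups, the difference was -1.33 ± 0.34 (limma adjusted p = 0.104). Without TAC 1, TAC was lower than JAX by -1.10 ± 0.20 (limma adjusted p = 0.00733). An estimated 23 to 54 reads per library stood behind Ly96, and these are approximate because its values were not whole multiples of 1 read.

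**Figure D3:**
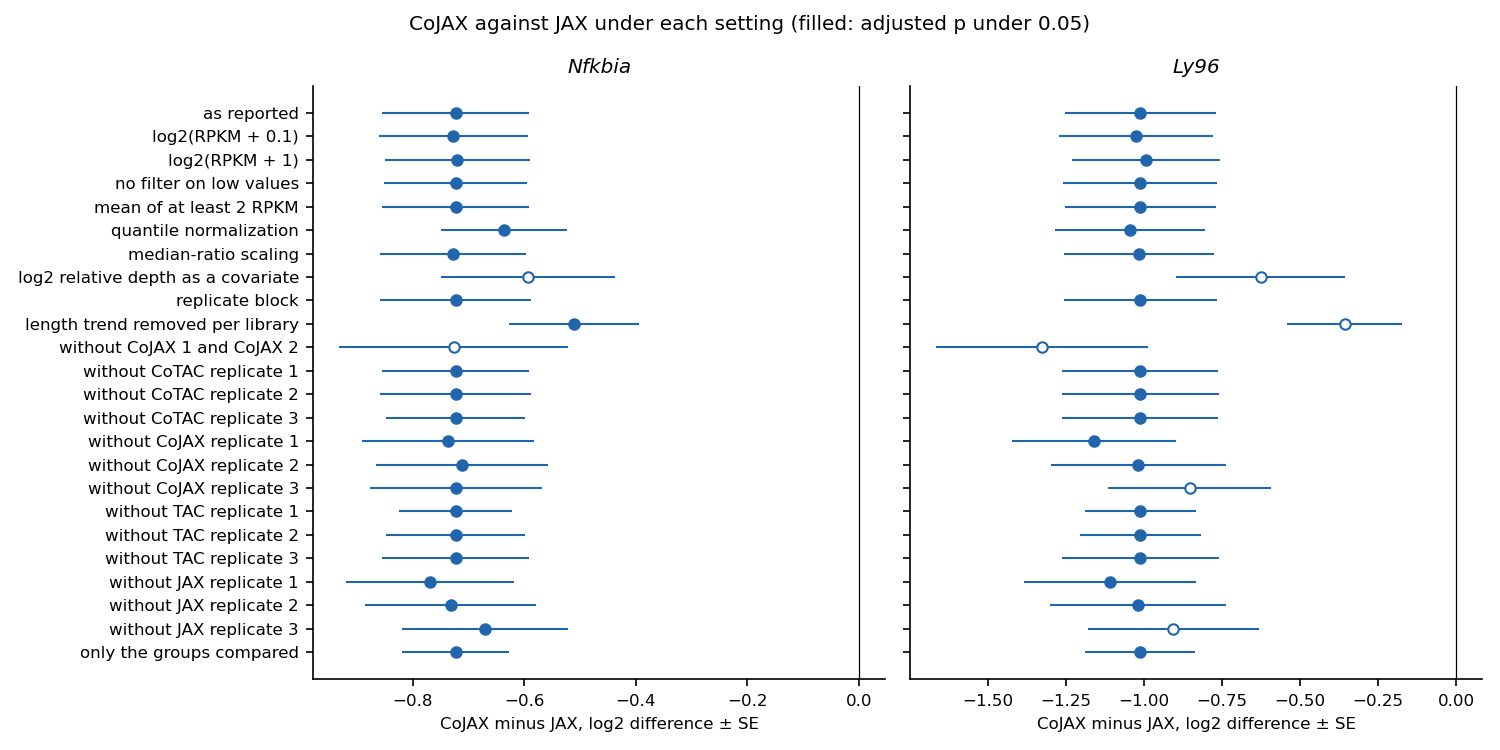
Difference between CoJAX and JAX in log2(RPKM + 0.5) for Nfkbia and Ly96 (horizontal axes, bars are SE) under each setting (rows), filled where the adjusted p is under 0.05. Nfkbia stays between -0.77 and -0.51, and Ly96 shrinks to -0.36 with the length trend removed and to -0.63 with depth as a covariate.

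Lbp encodes the acute phase protein that carries lipopolysaccharide in serum, made by hepatocytes. Lbp stood at 177, 70.5 and 192 RPKM in CoTAC, 98.2, 96.3 and 99.8 RPKM in CoJAX, 72.2, 89.1 and 99.6 RPKM in TAC, and 64.5, 77.0 and 71.9 RPKM in JAX. CoTAC 1 and CoTAC 3 stood well above all other libraries, CoTAC 2 lay within the JAX range, and every CoJAX library lay above every JAX library. CoJAX averaged 98.1 ± 1.76 RPKM against 71.2 ± 6.30 RPKM in JAX (0.46 ± 0.29, limma adjusted p = 0.261). CoTAC averaged 146 ± 66.0 RPKM against 87.0 ± 13.9 RPKM in TAC (0.63 ± 0.29, limma adjusted p = 0.205). Since all groups share 1 estimate of the spread, the scatter of CoTAC also widened the CoJAX comparison, which passed when only the CoJAX and JAX libraries were fitted (0.46 ± 0.10, limma adjusted p = 0.0162) and when CoTAC 2 was left out (0.46 ± 0.12, limma adjusted p = 0.0238). Without CoTAC 2 the Lbp difference of CoTAC from TAC was 1.09 ± 0.14 (limma adjusted p = 0.00476), that from CoJAX 0.90 ± 0.14 (limma adjusted p = 0.00906), and the cohousing average 0.78 ± 0.09 (limma adjusted p = 0.0013). CoTAC 2 is the CoTAC library with low Lbp, and this was the only 1 of 23 settings in which either CoTAC difference passed. When single libraries were left out, the difference from TAC ran from 0.37 to 1.09 and the cohousing average from 0.42 to 0.78. Lbp had a Pearson r of 0.544 with log2 relative depth.

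Of the genes in the lists below, Lcn2 and Socs3 are given here because they were also higher in CoTAC 1 and CoTAC 3 than in CoTAC 2, which was seen in their values first. Lcn2, which encodes the iron-siderophore binding protein lipocalin 2, was listed at 520, 19.0 and 537 RPKM in CoTAC 1, 2 and 3. Socs3, the feedback inhibitor of interleukin-6 signalling, was listed at 28.6, 14 and 27.4 RPKM there. Lcn2 was not high in CoTAC 1 and CoTAC 3 alone. The TAC libraries held 62.1, 227 and 100 RPKM of Lcn2, each above CoTAC 2. Among CoJAX and JAX libraries its highest value was 27.35 RPKM, found in JAX 3. Of the 16 acute phase genes of hepatocytes, all tested, 0 passed in CoTAC against TAC. In CoJAX against JAX the interleukin-6 receptor gene Il6ra was higher (1.38 ± 0.37, limma adjusted p = 0.0209) and 15 did not pass. With depth as a covariate the Il6ra difference was 1.13 ± 0.49 (limma adjusted p = 0.191), and under quantile normalization 6 of the 16 were higher. Of all tested genes 24.1% passed in CoJAX against JAX and 0.647% in CoTAC against TAC. Hp, also among the 16, differed between CoTAC and TAC by -0.52 ± 0.26 (limma adjusted p = 0.228). With depth as a covariate this Hp difference was 0.01 ± 0.05. Whether genes as abundant as Hp could show a rise in these libraries was not tested.

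Cd14 encodes the co-receptor that loads lipopolysaccharide onto MD-2. It varied more within groups than between them, at 7.28, 4.47 and 9.23 RPKM in CoTAC, 3.95, 5.92 and 5.14 RPKM in CoJAX, 8.56, 11.9 and 2.04 RPKM in TAC, and 9.30, 6.27 and 2.36 RPKM in JAX. These values stood for 5 to 41 reads per library, and all groups overlapped. The CoTAC difference from TAC was 0.13 ± 0.55 (95% interval -1.07 to 1.34) and the CoJAX difference from JAX was -0.08 ± 0.55 (95% interval -1.29 to 1.13), neither past the threshold. Tlr2, the receptor for bacterial lipoproteins, was listed at 1.67, 0.947 and 3.62 RPKM in CoTAC, 1.12, 1.51 and 1.48 RPKM in CoJAX, 1.32, 1.82 and 1.59 RPKM in TAC, and 2.79, 1.75 and 0.460 RPKM in JAX. The highest and lowest libraries held 33 and 2 reads, and the groups overlapped in every comparison. CoTAC differed from TAC by 0.18 ± 0.45 (95% interval -0.79 to 1.16) and CoJAX from JAX by -0.04 ± 0.45 (95% interval -1.02 to 0.93).

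Tlr4, the signalling receptor for lipopolysaccharide, was at the edge of detection. It had 3, 5 and 6 reads in CoTAC, 4, 2 and 10 in CoJAX, 1, 5 and 9 in TAC, and 1, 0 and 1 in JAX, 47 reads in all. In RPKM these were 0.227, 0.344 and 0.478 in CoTAC, 0.466, 0.200 and 0.675 in CoJAX, 0.160, 0.601 and 0.650 in TAC, and 0.127, 0 and 0.167 in JAX. The 0 in JAX 2 allows up to 0.476 RPKM, a bound that covers counting error only. Every CoJAX library lay above every JAX library. In a fit without the filter on low values the CoJAX difference was 0.64 ± 0.26 (limma adjusted p = 0.116) and the TAC difference from JAX was 0.67 ± 0.26 (limma adjusted p = 0.167), on a scale that understates changes at such levels.

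Myd88, the adaptor shared by most Toll-like receptors and the interleukin-1 receptor, moved little. Myd88 stood at 28.8, 27.5 and 34.9 RPKM in CoTAC, 28.2, 26.1 and 25.9 RPKM in CoJAX, 23.9, 23.7 and 20.9 RPKM in TAC, and 27.7, 25.2 and 24.7 RPKM in JAX. All CoTAC libraries lay above all TAC libraries, while CoJAX and JAX overlapped. CoTAC differed from TAC by 0.40 ± 0.11 (limma adjusted p = 0.0974) and CoJAX from JAX by 0.05 ± 0.11 (95% interval -0.20 to 0.29, limma adjusted p = 0.787). The cohousing average of 0.22 ± 0.08 passed narrowly (limma adjusted p = 0.0494). It was 0.17 under quantile normalization (limma adjusted p = 0.158) and 0.31 with depth as a covariate (limma adjusted p = 0.184), and passed in 1 of 12 fits that left out a library, the one without CoTAC 2. With the replicate number as a block it was 0.22 at a limma adjusted p of 0.0778.

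The numbers of calls were close to those of all genes. In CoJAX against JAX, Nfkbia and Ly96 were lower, 0 were higher and 7 of 9 tested genes did not pass, while 24.1% of all tested genes passed, 11.5% of them lower and 12.7% higher as shares of all tested. Icam1, Nfkbia and Ly96 lay wholly below JAX and Lbp and Tnfaip3 wholly above, where 21.9% and 21.8% of all tested genes did so. In CoTAC against TAC, Icam1 and Myd88 lay wholly above and Nfkbia wholly below, against 14.2% and 12.2% of all tested genes. In CoTAC against CoJAX, Icam1 lay wholly above and Nfkbia wholly below, against 9.07% and 9.94%. In TAC against JAX, Ly96 and Myd88 lay wholly below and 0 above, against 11.8% and 14.4%. In the cohousing average 3 of 9 passed, Nfkbia and Ly96 lower and Myd88 higher, against 33.3% of all tested genes. The median difference of the 9 was -0.04 in CoJAX against JAX and 0.10 in the cohousing average, and -0.01 over all tested genes in both.

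In the other comparisons 0 of 9 passed in the limma fit. TAC against JAX had 2 at an unadjusted p under 0.05 (Ly96 and Nfkbia), where 4.09% of all tested genes passed and 26.2% had such a p. Both passed without TAC 1, Nfkbia at -0.49 ± 0.11 (limma adjusted p = 0.0184). CoTAC against TAC had 3 (Nfkbia, Icam1 and Myd88), where 0.647% of all genes passed and 24.6% had such a p. Nfkbia passed there without CoTAC 2 (-0.67 ± 0.15, limma adjusted p = 0.0411) and without TAC 3 (-0.68 ± 0.15, limma adjusted p = 0.0271). CoTAC against CoJAX had 1 (Icam1), where 0.0663% passed and 10.8% had such a p. The vendor average had 2 (Nfkbia and Ly96), where 3.47% passed and 26.8% had such a p. Both passed without TAC 1, at -0.37 ± 0.08 and -0.62 ± 0.13 (limma adjusted p = 0.0133 and 0.0158), and Lbp passed without CoTAC 2 (0.59 ± 0.09, limma adjusted p = 0.00661). The interaction had 2 (Icam1 and Myd88), where 0% passed and 11.3% had such a p.

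**Figure D4:**
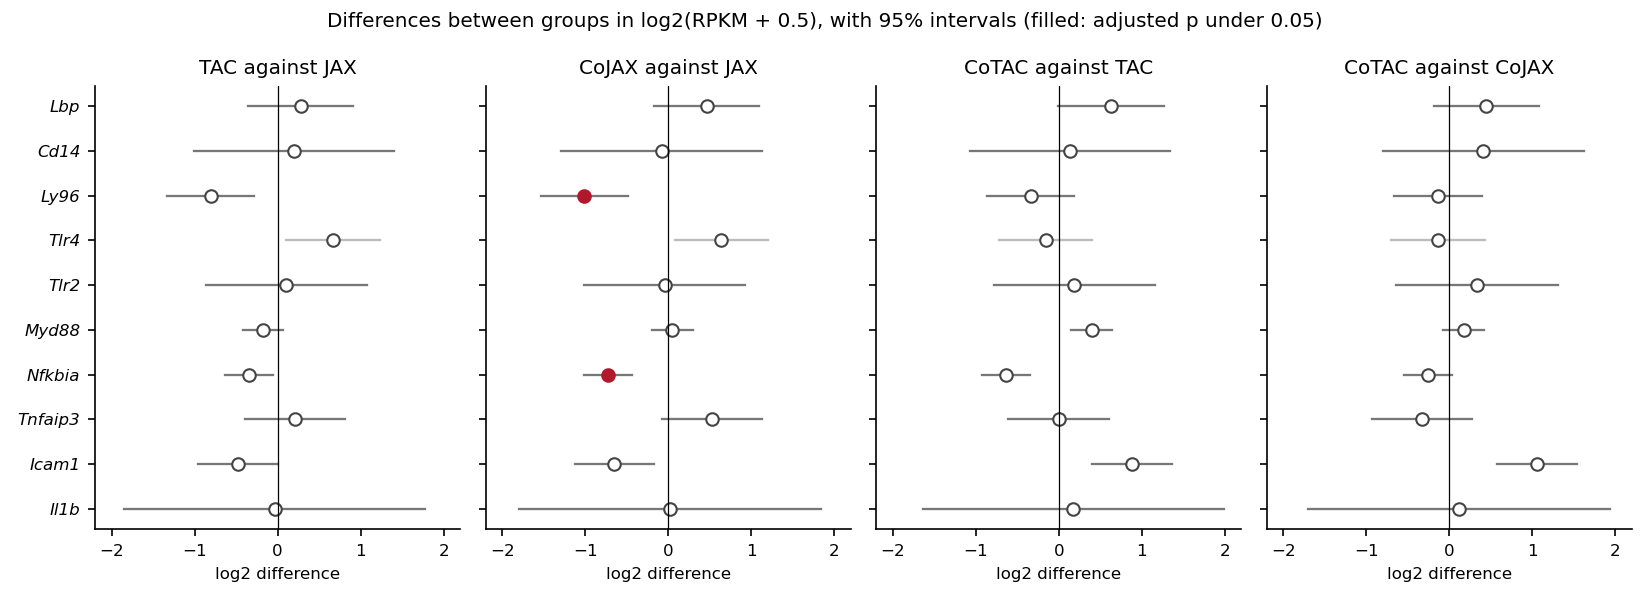
Log2 differences (points, horizontal axes) with 95% intervals (bars) for the 10 genes (rows) in 4 comparisons, filled where the adjusted p is under 0.05. Only Nfkbia and Ly96 in CoJAX against JAX are filled, and the Icam1 points lie on opposite sides of 0 in CoTAC against TAC (0.88) and CoJAX against JAX (-0.65). Tlr4, with a paler bar, comes from the fit without a filter.

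Other genes of the pathway were read from lists chosen with earlier results of these data known. Of all tested genes 12.7% were higher in CoJAX than in JAX. Among 18 adaptors and kinases between receptor and NF-κB, 17 were tested, and 4 were higher in that comparison. They were Ripk1 (0.49 ± 0.14, limma adjusted p = 0.0304), Irak1 (0.47 ± 0.14, limma adjusted p = 0.0327), Ticam1 (0.57 ± 0.17, limma adjusted p = 0.0342) and Ikbkb (0.42 ± 0.13, limma adjusted p = 0.0396), which encode signalling kinases and, for Ticam1, the adaptor of the other TLR4 branch. In CoTAC against TAC 0 passed, and Ticam1 had the opposite sign (-0.36 ± 0.17, limma adjusted p = 0.216; interaction -0.93 ± 0.24, limma adjusted p = 0.265). In both comparisons 16 of 17 differences were positive, with medians of 0.29 in CoTAC against TAC and 0.28 in CoJAX against JAX, beside 0.00 and -0.01 over all tested genes. In the cohousing average 7 of 17 were higher and 0 lower, where 16.5% of all tested genes were higher and 16.8% lower, among them the ubiquitin ligase gene Traf6 (0.71 ± 0.17, limma adjusted p = 0.00907). With the length trend removed the medians were 0.18 in CoTAC against TAC and 0.16 in CoJAX against JAX, with 14 of 17 positive in each, and 0 passed in CoJAX against JAX and 2 in the cohousing average, Irak1 and Traf6. With depth as a covariate the medians were 0.20 and 0.22, with 15 and 14 positive, and 0 passed in CoJAX against JAX or the cohousing average. There Ticam1, Ripk1 and Irak1 differed between CoJAX and JAX by 0.56 ± 0.23, 0.44 ± 0.19 and 0.41 ± 0.19 (limma adjusted p = 0.182, 0.193 and 0.224), and Ikbkb by 0.26 ± 0.16 (limma adjusted p = 0.36).

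Feedback genes outside the group went both ways. Of 15 listed, 13 were tested. Socs3 was higher in CoTAC than in TAC (1.83 ± 0.34, limma adjusted p = 0.0378) and 12 did not pass, where 0.647% of all tested genes passed. With depth as a covariate this Socs3 difference was 1.65 ± 0.42 (limma adjusted p = 0.3). In CoJAX against JAX 0 of 13 passed, where 24.1% of all tested genes passed. In the cohousing average Socs3 (1.40 ± 0.24, limma adjusted p = 0.00338) and the deubiquitinase gene Cyld (0.36 ± 0.11, limma adjusted p = 0.0312) were higher. Zfp36, which encodes an mRNA decay factor for cytokine transcripts, was lower (-0.60 ± 0.11, limma adjusted p = 0.00433). Of all tested genes 16.5% were higher and 16.8% lower in the cohousing average. Zfp36 was listed at 87.0, 59.4 and 71.2 RPKM in CoTAC, 82.5, 81.4 and 101 RPKM in CoJAX, 126, 125 and 110 RPKM in TAC, and 101, 142 and 123 RPKM in JAX. Every CoTAC library of Zfp36 lay below every TAC library, as was the case for 12.2% of all tested genes. Of the 5 NF-κB subunits 4 were tested, and Relb, of the noncanonical pathway, was lower in the cohousing average (-0.86 ± 0.22, limma adjusted p = 0.014). Its levels were near the filter of 1 RPKM, at 0.693 to 1.26 RPKM in CoTAC and 0.914 to 1.61 in CoJAX. They were 1.59 to 2.92 RPKM in TAC and 1.53 to 3.48 in JAX. With the length trend removed Socs3, Zfp36 and Relb kept their cohousing calls (limma adjusted p = 0.00547, 0.00657 and 0.0154) and with depth as a covariate they did not pass at sizes of 1.20 ± 0.36, -0.53 ± 0.16 and -0.85 ± 0.33 (limma adjusted p = 0.14, 0.142 and 0.2). Cyld was 0.12 ± 0.10 with the length trend removed (limma adjusted p = 0.377), 0.27 ± 0.10 under quantile normalization (limma adjusted p = 0.0665) and 0.23 ± 0.15 with depth as a covariate (limma adjusted p = 0.418).

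**Figure D5:**
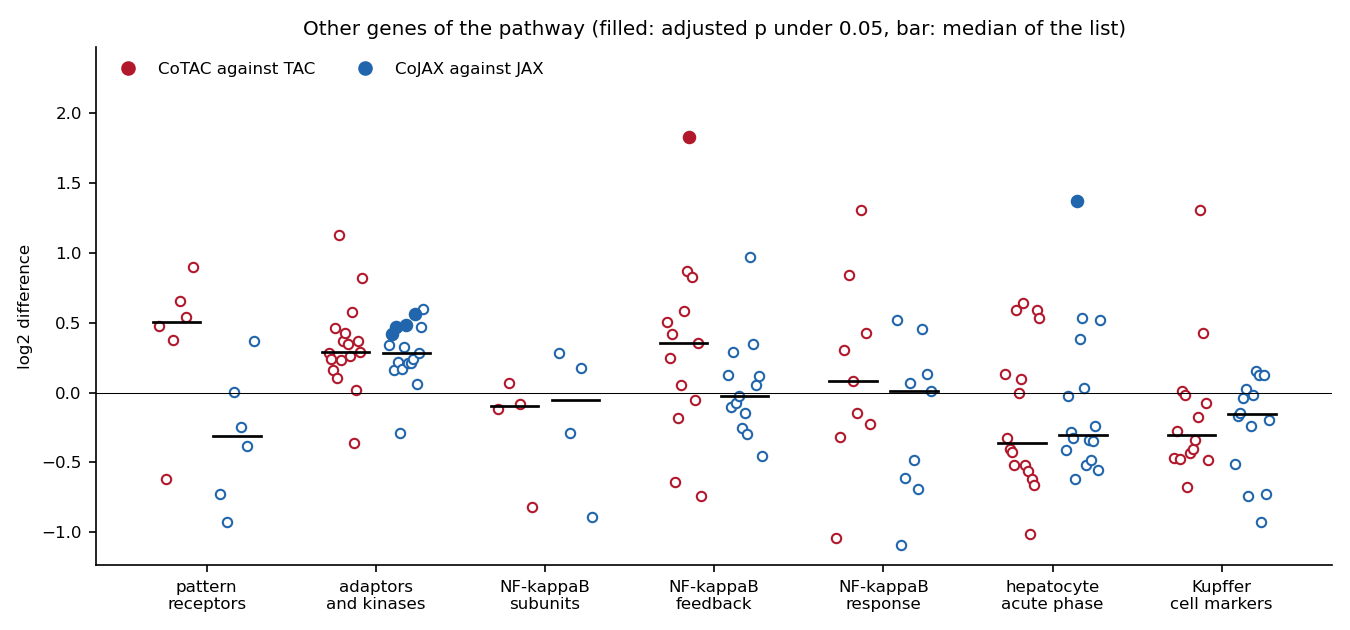
Log2 differences (vertical axis) of the tested genes in 7 lists (horizontal axis) for CoTAC against TAC and CoJAX against JAX, with 1 point per gene, filled where the adjusted p is under 0.05, and a bar at the median of the list. The adaptors and kinases lie mostly above 0 in both comparisons, with medians of 0.29 and 0.28, and Socs3 is the filled point of CoTAC against TAC at 1.83.

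Of 15 further pattern receptors 6 reached the filter, and only Ly86, a partner of the receptor RP105, passed, lower in the cohousing average (-0.77 ± 0.23, limma adjusted p = 0.0251; with depth as a covariate -1.005 ± 0.34, limma adjusted p = 0.163). Of 15 NF-κB response genes 9 were tested, 0 passed in the cohousing average, and the macrophage growth factor gene Csf1 was lower in TAC than in JAX (-0.98 ± 0.22, limma adjusted p = 0.0352), a call that was lost with depth as a covariate. Of all tested genes 33.3% passed in the cohousing average and 4.09% in TAC against JAX. Il6 was listed at 0 in all libraries.

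Markers of the cells that carry these receptors are given for comparison. The 14 Kupffer cell and macrophage markers, all tested, summed to 516 to 697 RPKM in CoTAC, 494 to 639 in CoJAX, 617 to 863 in TAC and 475 to 964 in JAX, with 0 passed in CoTAC against TAC or CoJAX against JAX and 2 lower in the cohousing average (Cd68 and C1qa), where 16.8% of all tested genes were lower. These 2 calls became 0 with the length trend removed, 0 with depth as a covariate and 1 under quantile normalization. None of these 14 was at 0 in all libraries. In the cohousing average 5 of 10 sinusoidal endothelial and 2 of 8 stellate markers were lower, and of 10 hepatocyte markers 2 were higher and 5 lower. All of these counts became 0 with depth as a covariate, where 1 of 12058 tested genes passed, so such a count says little about size. With that covariate the median went from -0.57 to -0.79 for the endothelial markers, with 0 of 10 positive. It went from -0.28 to -0.20 for the stellate and from -0.44 to 0.04 for the hepatocyte markers. With the length trend removed 5 of 10 endothelial markers were lower. The lower hepatocyte markers included Apoa1, at 1232 RPKM in JAX 3 and 517 RPKM in CoJAX 3. These were the libraries of least and greatest relative depth (0.7581 and 1.8788). The part of depth in the hepatocyte differences cannot be told apart from that of the group. Of 6 monocyte markers 2 were tested. Fn1, at 90.3 to 272 RPKM, was higher in the cohousing average (0.68 ± 0.15, limma adjusted p = 0.00676) and in CoJAX against JAX, and in neither with depth as a covariate. Ly6c2 (-0.53 ± 0.45, limma adjusted p = 0.381) did not pass, and Ccr2, Chil3, F13a1 and Itgam lay at 0 to 1.97 RPKM. Fn1 lay far above the other markers of its list, so it is not taken as a measure of monocytes here. Among the rest 0 of 4 tested neutrophil and 0 of 4 tested lymphocyte markers passed in the cohousing average. The part of cell makeup in the Ly96 and Nfkbia differences was not tested.

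The genes whose levels tracked Nfkbia most closely over the 12 libraries were Nudt9, Coq7 and Mri1 (Pearson r 0.969, 0.968 and 0.967), and for Ly96 they were Map3k12, Rrnad1 and Tmem223 (0.98, 0.98 and 0.976). For Myd88 they were Taok3, Elmod3 and Grpel2 (0.917, 0.867 and 0.866). Nfkbia and Ly96 had an r of 0.859 with each other. These values describe 12 libraries that share differences in depth.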

How the data were processed

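Liver mRNA of 12 libraries was sequenced. Per the labels' protocols, RNA was extracted with Trizol, poly(A) mRNA was isolated, and a ThruPLEX kit was used. What the authors deposited is 1 table of RPKM values with a column per library, mapped to samples through the library codes in their titles. The submitters' processing notes list Bowtie 1.0.0, Cuffdiff 2.1.1 and mm9, with no role for any. Annotation, strand, filters and duplicate handling were not stated, so overlapping and antisense reads cannot be told apart. Of 23936 lines, 27 carried a date number in place of a symbol and were left out (0.16% to 0.2% of RPKM).

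Relative depth was taken from the commonest ratio between values under 0.6 RPKM, and reads from the smallest step that makes all 12 values of a gene whole. Both steps were tested on simulated data. Absolute read numbers rest on GENCODE transcript lengths. Limits for a gene without reads in a library cover counting error only. Intervals of differences come from the limma fit and rest on the scatter of libraries within groups.

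limma 3.58.1 in R 4.3.3 fitted log2(RPKM + 0.5), so changes of low genes are understated, with 4 group means and no block, for 7 contrasts, two-sided. With 3 against 3 an exact permutation test cannot go below 0.1. The fit was tested on simulated data with independent noise in each library, where 64% of changes of 1 log2 unit were recovered and 11 of 164 calls were false. Those data held no depth trend shared between genes, so they do not show how the fit behaves where depth differs between groups. The replicate numbers were not used to pair libraries. Correlations of deviations ran from -0.174 to 0.151 between same-numbered libraries and from -0.251 to 0.238 between others. Because the labels give no cage, these values cannot show whether cohoused libraries shared one, and the fit treated all libraries as independent. Alternatives were other pseudocounts, filters and scalings, depth as a covariate, a replicate block, fits of the groups compared alone and leaving out each library. Removal of the length trend (lowess on log2 length, 98.5% of genes with a length) and the fit without CoJAX 1 and CoJAX 2 were added after seeing the data. The 10 genes, the lists of pathway genes and of cell type markers were chosen with earlier results of these data known. All 10 genes are named. From the lists, up to 4 genes with the smallest p in a comparison are named, and the 3 genes most like each gene that passed are given. Zfp36, Lcn2, Il6 and Apoa1 were also given after their values were seen.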

Additional observations from a re-analysis of the deposited data

Results flagged for a closer look

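Icam1 lay on opposite sides of its control group in the vendors. Every CoTAC library lay above every TAC library (15.1 ± 3.71 RPKM in CoTAC, 7.86 ± 0.955 RPKM in TAC) and every CoJAX library below every JAX library (6.90 ± 0.582 RPKM in CoJAX, 11.4 ± 3.27 RPKM in JAX). The test of this difference, the interaction, gave 1.53 ± 0.31 on the log2 scale and did not pass over all genes (limma adjusted p = 0.237).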

How the results depend on the processing

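In CoJAX against JAX the 2 calls became 0 with depth as a covariate, 0 without CoJAX 1 and CoJAX 2, and 1 (Nfkbia) with the length trend removed. In the cohousing average the 3 calls became 0 with depth as a covariate. Leaving out single libraries gave 0 to 2 calls for TAC against JAX, 1 to 4 for CoJAX against JAX, 0 to 3 for CoTAC against TAC, 0 to 2 for CoTAC against CoJAX, 0 to 2 for the vendor average, 2 to 4 for the cohousing average and 0 to 0 for the interaction. With the replicate block the count stayed at 2 for CoJAX against JAX (Nfkbia and Ly96), was 2 for the cohousing average and 0 for the other contrasts. The causes were not tested. Of 63 differences of tested genes 28 changed sign under at least 1 setting, and none of these was among the 5 that passed.

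Over all genes, the number past the threshold with depth as a covariate was 39 against 2911 for CoJAX against JAX, 1 against 4012 for the cohousing average, 132 against 493 for TAC against JAX, 6 against 78 for CoTAC against TAC, 5 against 8 for CoTAC against CoJAX, 89 against 418 for the vendor average and 2 against 0 for the interaction. Without CoJAX 1 and CoJAX 2 it was 0 for CoJAX against JAX, 1987 for the cohousing average, 96 for TAC against JAX, 45 for CoTAC against TAC, 3 for CoTAC against CoJAX and 28 for the vendor average. The replicate block gave 63, 17 and 72 for TAC against JAX, CoTAC against TAC and the vendor average. The groups compared alone gave 45, 2 and 1 for TAC against JAX, CoTAC against TAC and CoTAC against CoJAX. Removing the length trend gave 274 for TAC against JAX and 205 for the vendor average, quantile normalization 810 for TAC against JAX, and no filter 328, 183 and 3 for TAC against JAX, the vendor average and the interaction. Leaving out single libraries gave 11 to 2113 for TAC against JAX, 1264 to 3431 for CoJAX against JAX, 2 to 1530 for CoTAC against TAC, 2 to 229 for CoTAC against CoJAX, 44 to 1905 for the vendor average and 0 to 46 for the interaction. Depth limits Tlr4, Il1b, Tlr2, Cd14 and Tnfaip3, for which few reads per library were counted.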
